A study of Mus musculus with 8 samples.

Results

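The 58 genes described here encode enzymes that cut or trim extracellular proteins, together with their inhibitors, in embryonic mouse kidneys that lost the hedgehog signal transducer Smoothened (Smo) in renal stromal progenitors. They are the rows of the deposited table named Adamts, Adamtsl, Mmp, Timp or Pcsk followed by a number, out of 23337 genes in the table. There were 19 Adamts, 5 Adamtsl, 23 Mmp, 4 Timp and 7 Pcsk genes. A mean normalised read count of at least 10 over the 8 libraries was required for testing, which 39 of the 58 genes and 13692 genes in all passed.

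Poly(A) RNA was sequenced from kidneys at E13.5 on a mixed C57BL/6 background. Mutant kidneys (4 libraries) were Foxd1Cre;Smo(flox/-), so they carried Cre recombinase driven by Foxd1, a gene of stromal progenitors, a floxed Smo copy and a Smo copy already null in every cell. Control kidneys (4 libraries) were Smo(flox/+), with a floxed and a wild type copy and no Cre in the label, so that the floxed copy is what both groups share. The mutants came from Foxd1Cre(Smo+/-) mice crossed to Smo(flox/flox) mice. Cre acts in the stromal lineage only, while the RNA came from whole kidneys, so unrecombined Smo from other cells remains in the mutants. Nothing in the labels says whether samples 1 to 4 of a group came from separate embryos. The p-values therefore measure the spread between these samples, which may be technical in part. Libraries held 10288191 to 13494079 reads in genes. Smo lay between 509 and 553 normalised counts in mutant libraries and between 2152 and 2294 in control libraries, so the level of Smo fitted the label of every library. The summed markers of nephron progenitors, ureteric bud and cortical stroma were detected in all 8 libraries. Upk3a, of the ureteric bud list, reached no more than 1.12 in any library. The summed level of 8 skeletal muscle markers varied widely, from 84.0 to 1769.9 in mutants (highest in mutant 2) and from 89.3 to 3253 in controls (highest in control 2). The 6 liver markers summed to 14.0 to 141 in mutants (highest in mutant 1) and 13.2 to 719 in controls (highest in control 1). Y-linked Ddx3y was present in mutant 2 (1389.7) and control 4 (1518) and at no more than 1.70 elsewhere. Xist was at 23.4 in mutant 2 and 16.9 in control 4, and at 26989 or more elsewhere. Mutant 2 and control 4 thus differ in sex from the rest of their groups.

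Matrix metalloproteinases (Mmp) and the Adamts proteases are zinc enzymes that cleave collagens, proteoglycans such as versican, and other matrix proteins. Tissue inhibitors of metalloproteinases (Timp) block them, and the Adamts-like proteins (Adamtsl) share the ancillary domains of the Adamts family without a protease domain and bind the matrix. Proprotein convertases (Pcsk) are subtilisin-like serine enzymes that cut precursors of growth factors, receptors and metalloproteinases into their active forms. In the embryonic kidney such enzymes act where the ureteric bud branches into surrounding mesenchyme and stroma.

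The active sites set the families apart in sequence, and are shown for the members whose values carry the results. In the longest coding transcript of GENCODE vM21 (GRCm38), the coding sequence of the metalloprotease zinc site, a stretch of 11 codons with 3 histidine codons, was found in 18 of 19 Adamts and 23 of 23 Mmp genes, and in none of the Adamtsl, Timp or Pcsk genes. In all 18 Adamts genes the site was spliced together from adjacent exons, while in all 23 Mmp genes it lay within 1 exon. Capitals mark the codons for the 3 zinc-binding histidines, the catalytic glutamate after the first of them, and a middle codon.
Adamts9: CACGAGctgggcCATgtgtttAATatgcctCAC
Adamts5: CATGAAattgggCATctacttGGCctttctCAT
Adamts17: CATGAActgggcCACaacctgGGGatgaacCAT
Adamts6: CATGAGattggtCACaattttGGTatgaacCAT
Adamts2: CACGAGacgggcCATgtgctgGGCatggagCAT
Mmp15: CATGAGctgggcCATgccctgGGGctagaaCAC
Mmp14: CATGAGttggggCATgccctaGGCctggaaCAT
Mmp2: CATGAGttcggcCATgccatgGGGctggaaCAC
The middle codon, which lies between the last histidines, was a glycine codon in 13 Adamts and all 23 Mmp genes with a site, and an asparagine codon in 5 Adamts genes, Adamts1, Adamts4, Adamts9, Adamts15 and Adamts20. The search accepted only glycine or asparagine there, so a site with any other middle codon would be missed. Adamts8 gave no match, which does not show that it lacks a zinc site. The Mmp15 site lies on chromosome 8 (95368585 to 95368617, plus strand, exon 5) and the Mmp14 site on chromosome 14 (54437627 to 54437659, plus strand, exon 5).

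Convertases carry a catalytic serine instead. A single match to its coding motif was found in 6 of 7 Pcsk genes, and is shown for Pcsk5, the member with the smallest p, and 2 relatives. Pcsk6 gave no match. The motif also restricts the codons next to the serine, so this does not show that Pcsk6 lacks the catalytic serine. Capitals mark the glycine, threonine and serine codons.
Pcsk5: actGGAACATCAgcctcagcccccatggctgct
Pcsk4: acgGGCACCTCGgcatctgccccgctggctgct
Pcsk7: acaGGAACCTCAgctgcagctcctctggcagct
The Pcsk5 site lies on chromosome 19 (17642522 to 17642554, minus strand, exon 9).

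Mutant kidneys had lower levels of 3 members, Pcsk5, Adamts9 and Mmp15, and no member was higher. The falls were modest, to 71.2%, 80.5% and 81.8% of the control means. These 3 calls out of 39 (7.69%) compare with 0.446% of all tested genes called lower, 0.124% called higher and 0.570% called in either direction (limma, Benjamini-Hochberg adjusted p under 0.05 over 13692 genes). The other 36 members were not called. edgeR's quasi-likelihood test on recovered reads called these 3 and no other member (0.577% of all genes). DESeq2 called 7 members, adding Adamts17, Adamts5, Adamts6 and Adamts2 (1.56% of all genes). No member was higher by either tool, and none was higher at an unadjusted p under 0.05 by limma, edgeR or DESeq2. The authors' deposited table gave an adjusted p under 0.05 to 4 members, Pcsk5, Adamts9, Adamts5 and Mmp15, where 0.614% of all genes with a p-value did.

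Pcsk5 (chromosome 19, 17432314 to 17837712, GRCm38.p6) encodes a convertase known in mice to process the growth factor Gdf11. Its normalised counts were 417, 394, 419 and 448 in mutants 1 to 4, against 612, 578, 613 and 553 in controls 1 to 4. The groups did not overlap, and the gap between them exceeded the whole range within either group. The means were 419.5 ± 22.0 in mutants and 589 ± 29.3 in controls (SD, n = 4 each), a log2 fold change of -0.49 (SE 0.057, limma adjusted p = 0.00644). Fold changes are mutant over control on the scale of log2(normalised count + 1). Pcsk5 was the only member called in all 8 fits that omit a library, where its log2 fold change lay between -0.52 and -0.46 and the limma adjusted p reached 0.0319. It lost its call when both libraries numbered 2, each the richest of its group in muscle markers, were left out together (log2 fold change -0.47, adjusted p = 0.0671). It also lost it without an intensity trend in limma (adjusted p = 0.0586). With the mean log2 level of the muscle markers as a covariate (muscle score), Pcsk5 stayed called (log2 fold change -0.49, limma adjusted p = 0.00314). So did Adamts9 (limma adjusted p = 0.0164) and Mmp15 (0.0275).

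Adamts9 (chromosome 6, 92772699 to 92944450) encodes a secreted versican-cleaving protease that is also known to be needed for primary cilium assembly in mouse cells. Levels were 1501, 1594, 1609.7 and 1748 in mutants and 1883, 2030.2, 2003 and 2105 in controls. Every mutant library was below every control library, with mutant 4 nearest to the controls. The means were 1613 ± 102 in mutants and 2005 ± 92.2 in controls (SD, n = 4 each), a log2 fold change of -0.31 (SE 0.050, limma adjusted p = 0.0212). The call was lost without mutant 1 (limma adjusted p = 0.0687), mutant 2 (0.0797), mutant 3 (0.0913), control 2 (0.0701) or control 3 (0.0875). Exons of Adamts9 overlap those of A730049H05Rik and Gm15737 on the opposite strand by 1381 and 424 bases, and the kit used gives no stated strand, so reads there cannot be assigned with certainty. Adamts9 lies 63.0 Mb from Smo, which is on the same chromosome, and the part of linkage in its level was not tested.

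Mmp15 (chromosome 8, 95352296 to 95374293) encodes a membrane-type metalloproteinase closely related to Mmp14. Its levels were 471, 515, 488 and 492 in mutants, against 585, 575, 617 and 626 in controls, again without overlap. The means were 492 ± 18.4 in mutants and 601 ± 24.7 in controls (SD, n = 4 each), a log2 fold change of -0.29 (SE 0.050, limma adjusted p = 0.0325). Its call held in only 1 of the 8 fits with a library left out, that without control 4 (limma adjusted p = 0.0338). In the other 7 fits, without mutant 1, 2, 3 or 4 or control 1, 2 or 3, the limma adjusted p lay between 0.0529 and 0.137, with log2 fold changes between -0.31 and -0.27. For groups of 4 and 4 that do not overlap, an exact two-sided permutation test always gives p = 0.0286, the smallest it can give, so for the 3 called genes it only restates the separation.

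**Figure D1:**
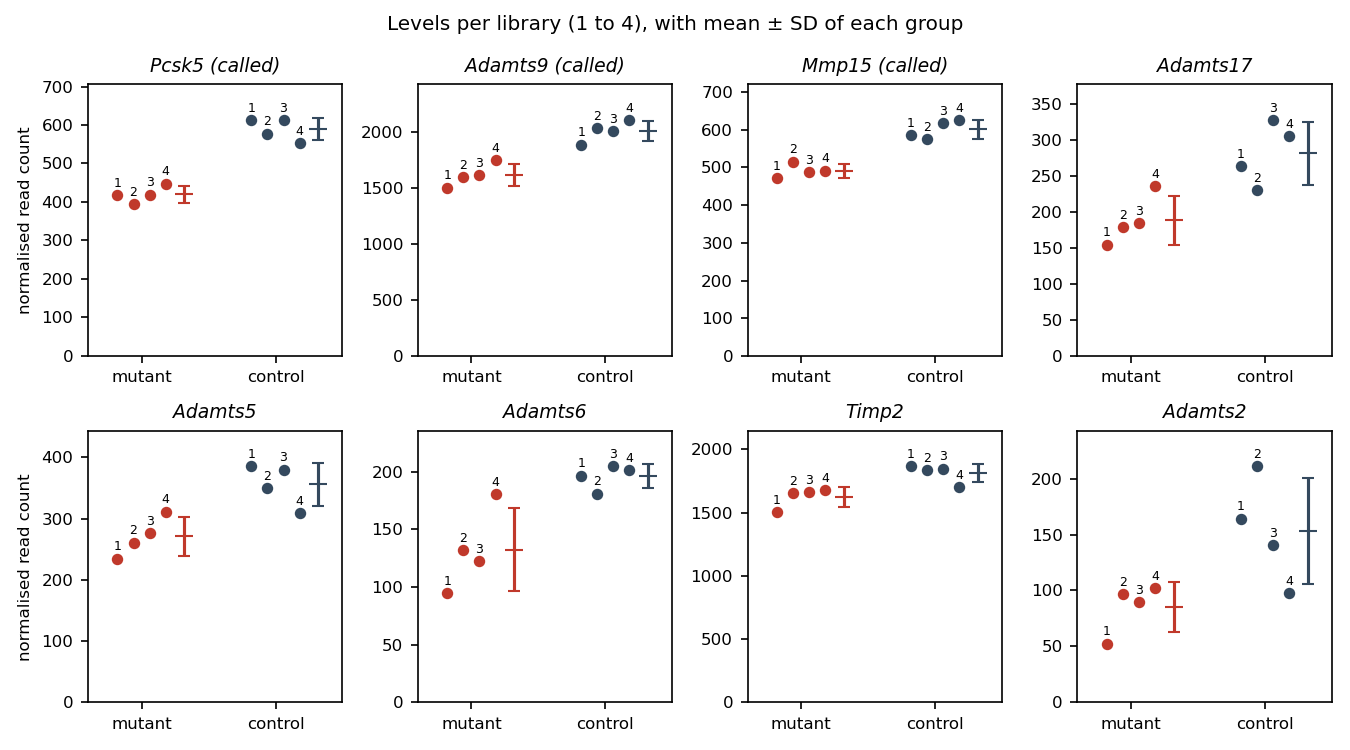
Normalised read counts (y axis, from 0) of the 8 members with the smallest p in each library, mutants left and controls right, with the library number above each point and the mean ± SD of 4 libraries beside them. For Pcsk5, Adamts9 and Mmp15 the 4 mutant points all lie below the 4 control points, while for Adamts17, Adamts5 and Adamts2 the groups overlap.

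**Figure D2:**
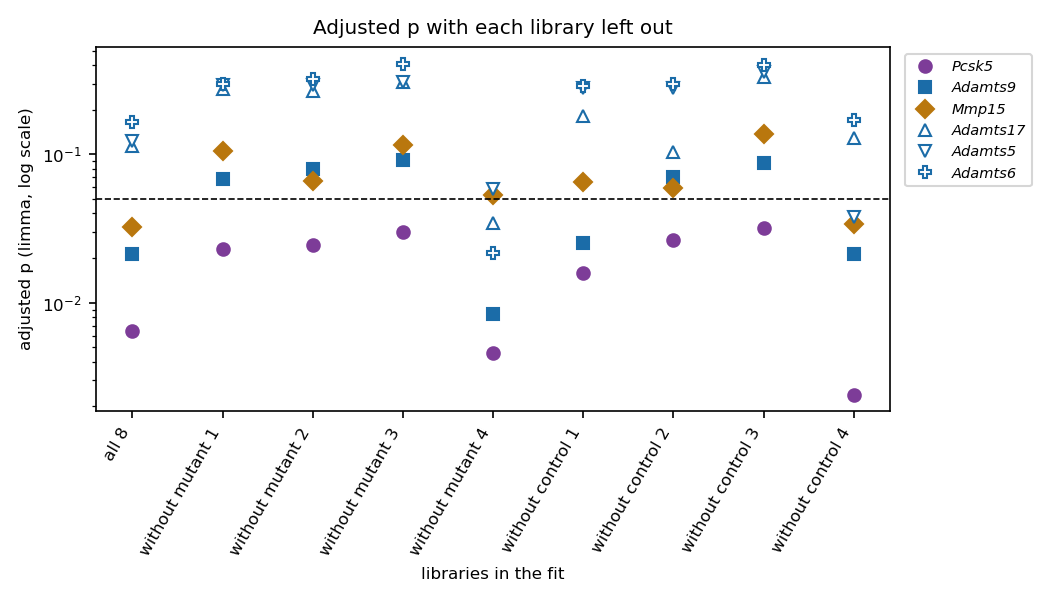
Limma adjusted p (y axis, log scale) of 6 members in the fit of all 8 libraries and with each library left out, with filled symbols for the 3 called members and a dashed line at 0.05. Pcsk5 stays under the line in every fit shown, Adamts9 in the full fit and 3 others, and Mmp15 in the full fit and that without control 4.

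Over all 39 members, the 3 called ones included, 28 (71.8%) had a fold change below 0, where 48.1% of all tested genes did. The median log2 fold change was -0.12 over the members and 0.00374 over all tested genes. An unadjusted p under 0.05 with a lower level in mutants was reached by 11 members (28.2%), against 5.17% of all genes. All 4 mutants lay below all 4 controls for 6 members (15.4%), against 3.00% of all genes. No member separated with mutants on the higher side, against 2.31% of all genes (5.31% in either direction).

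**Figure D3:**
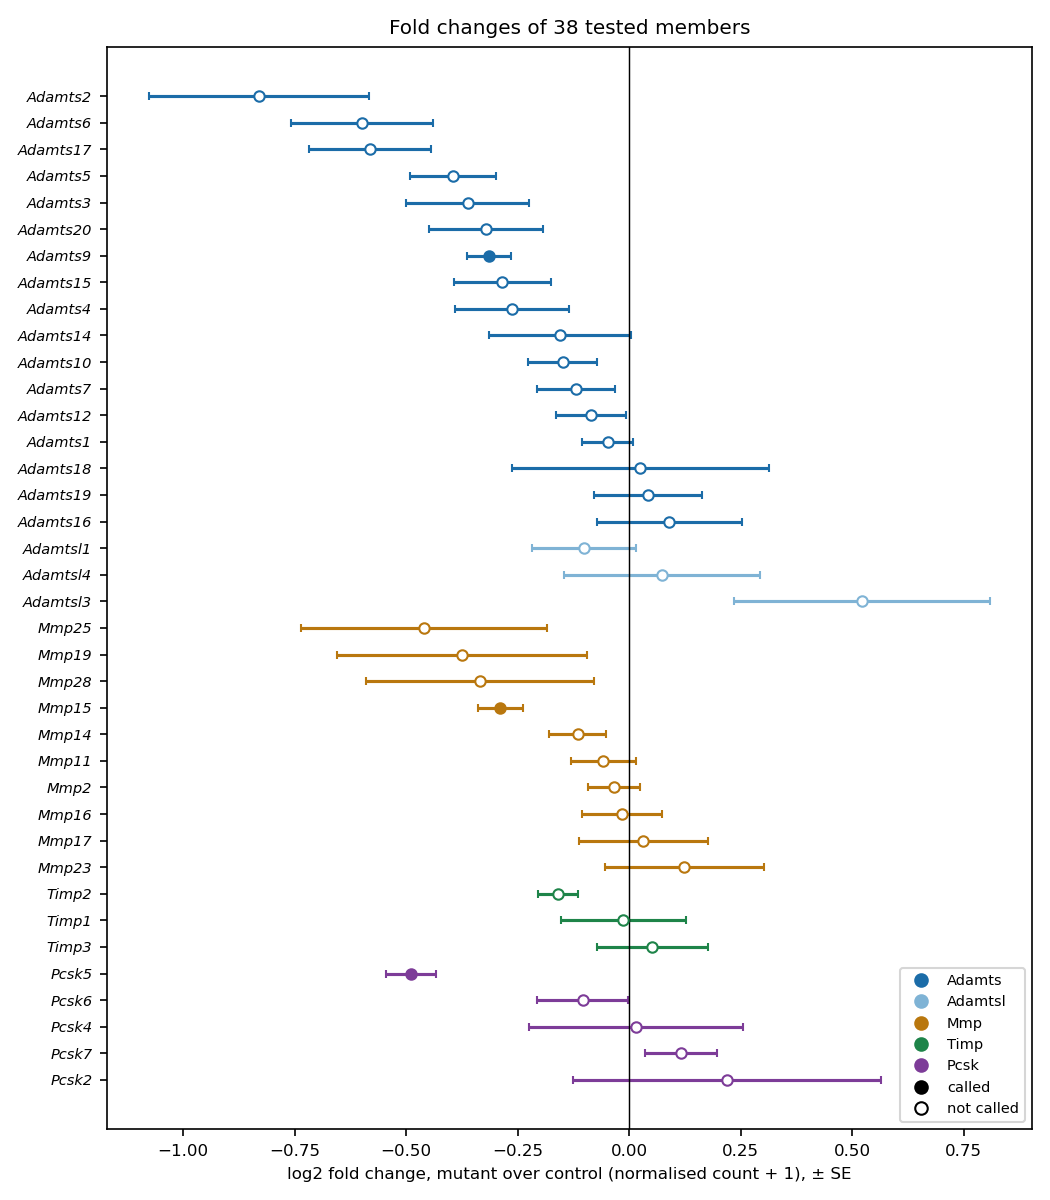
Log2 fold change, mutant over control, with its SE (x axis) for 38 of the 39 tested members, grouped by family and ordered within each, filled where called. Most Adamts and Mmp points lie left of 0, with Adamts2 at -0.83 farthest left and Adamtsl3 at 0.52 farthest right, while the Timp genes and the Pcsk genes shown other than Pcsk5 lie between -0.16 and 0.22.

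The Adamts family held 14 of the 28 negative fold changes, from 17 tested genes (median -0.26), and Adamts9 alone was called. The Mmp family had 8 of 10 tested genes below 0 (median -0.09), and a difference between families was not tested. The subfamilies below were formed from known substrates after the values had been seen. Among versican- and aggrecan-cleaving enzymes and their close relatives, all 6 tested members were below 0, with a median log2 fold change of -0.30. Adamts5, an aggrecanase and versicanase, stood at 235, 261, 277 and 311 in mutants and 385, 349, 379.8 and 309 in controls. Control 4 fell inside the mutant range, and the gene was not called (log2 fold change -0.39, SE 0.096, limma adjusted p = 0.123), though it was without control 4 (limma adjusted p = 0.0377). Adamts15 was at 228, 250.3, 270.0 and 275 in mutants and 299, 389.7, 300.3 and 268 in controls (log2 fold change -0.28, limma adjusted p = 0.434). Adamts4 was at 102, 122, 123 and 143 in mutants, against 142, 179.9, 137 and 132 in controls (log2 fold change -0.26, limma adjusted p = 0.621). For both, control 2 was the highest library. Adamts20, a close relative of Adamts9, was at 99.3, 95.8, 89.6 and 128 in mutants and 114, 123, 147 and 129.7 in controls (log2 fold change -0.32, limma adjusted p = 0.472). Adamts1, the most abundant of this subfamily per length, differed least, with 1081 ± 58.7 in mutants and 1119 ± 81.4 in controls (SD, n = 4 each).

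The procollagen N-propeptidase genes Adamts2, Adamts3 and Adamts14, whose products trim fibrillar procollagens, all had negative fold changes and none was called. Adamts2 had the most negative fold change of the 39 tested members, with 52.5, 96.9, 89.6 and 102 in mutants and 164, 211, 140.5 and 97.8 in controls. Its groups overlapped through control 4, and control 2, the library with the highest muscle marker sum, was the highest. Its log2 fold change was -0.83 (SE 0.246, limma adjusted p = 0.239), and -0.50 without control 1 and control 2. Adamts3, which also activates the lymphatic growth factor Vegfc, was at 72.6, 57.5, 65.0 and 73.0 in mutants and 80.8, 79.6, 107 and 79.9 in controls. These groups did not overlap, and the log2 fold change was -0.36 (SE 0.137, limma adjusted p = 0.426).

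Adamts6, Adamts10 and Adamts17 encode enzymes linked to fibrillin microfibrils, and in humans mutations of ADAMTS10 and ADAMTS17 cause short stature with lens defects. Adamts17 was at 155, 179, 185 and 236 in mutants, against 264, 231, 328 and 306 in controls, the groups overlapping only through mutant 4 and control 2. Its log2 fold change was -0.58 (SE 0.137, limma adjusted p = 0.114), called by DESeq2 (adjusted p = 0.0101) and by limma without mutant 4 (adjusted p = 0.0346). Adamts6 was at 94.5, 132, 122 and 180.4 in mutants and 196, 181, 204 and 201 in controls. The groups were apart by less than 1 normalised count between mutant 4 and control 2, and the log2 fold change was -0.60 (SE 0.159, limma adjusted p = 0.164). Without mutant 4 it was -0.76 (limma adjusted p = 0.0215). Adamts6 lies 5.93 Mb from Foxd1 on chromosome 13, so it is linked to the Cre locus if Cre was inserted there, which the labels do not state, and the part of linkage in its level was not tested. Adamts10 was at 485, 486, 469 and 553 in mutants, against 561, 485, 547 and 621 in controls (log2 fold change -0.15, limma adjusted p = 0.657). Adamts16, Adamts18 and Adamts19 had log2 fold changes between 0.03 and 0.09. For Adamts18 the means ran the other way, at 284 ± 86.0 in mutants and 293 ± 153 in controls (SD, n = 4 each), so no direction is given. It ranged from 202 to 387 in mutants and from 195 to 521 in controls, where control 4 held the highest value.

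Split by the active-site codon, the 5 tested Adamts genes with an asparagine codon were all below 0 (median log2 fold change -0.28, with 1 called), and 9 of the 12 with a glycine codon were (median -0.15, none called by limma at an adjusted p under 0.05). The difference between these sets was not tested.

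The members with the smallest p shared a library pattern. Of the 13 members with the smallest p, 12 had their highest mutant value in mutant 4 and 9 had their lowest in mutant 1. The share of all genes with this order was not counted. Among the other tested members, Pcsk7, Pcsk4, Adamts16, Timp3 and Mmp17 had their highest mutant value in mutant 1. The median deviation of the 39 members from the control mean was -0.27 in mutant 1, -0.18 in mutant 2, -0.14 in mutant 3 and -0.04 in mutant 4 on the log2 scale, and between -0.10 and 0.03 in controls. The summed level of 10 cortical stroma markers was 17888 in mutant 1, 18647 in mutant 2, 20371 in mutant 3 and 22216 in mutant 4, against 24126 to 26544 in controls. Without Foxd1 it was 17404 to 21478 in mutants and 22732 to 24851 in controls. The 8 nephron progenitor markers summed to 11044 to 11752 in mutants and 8873 to 10124 in controls. In RNA of whole kidneys, fewer cells of a type and less RNA per cell cannot be told apart, and the part of these markers in the members' levels was not tested.

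**Figure D4:**
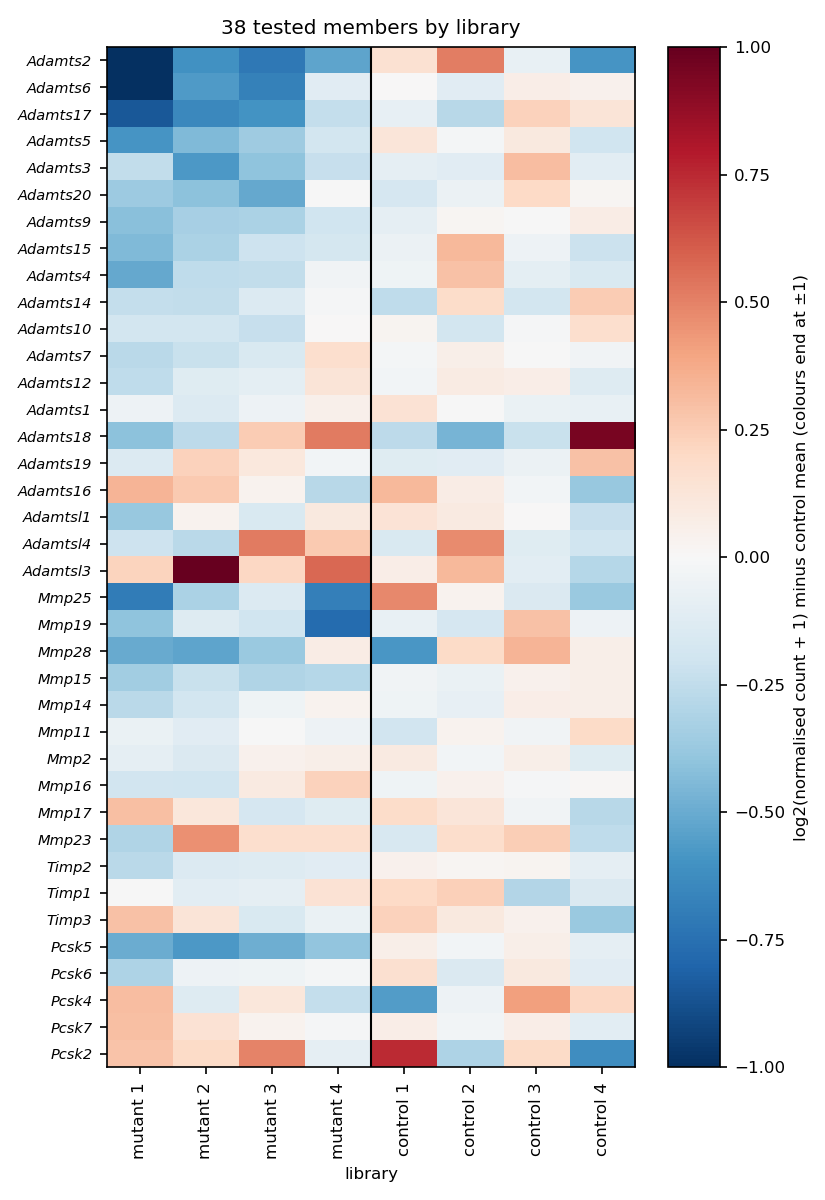
Log2(normalised count + 1) minus the control mean (colour, ending at ±1) for 38 of the 39 tested members (rows, by family) in the 4 mutant and 4 control libraries (columns). Blue fills the upper Adamts rows in mutants 1 to 3 and is paler in mutant 4, and Adamts18 in control 4 and Adamtsl3 in mutant 2 are deep red.

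Among metalloproteinases, 10 of 23 Mmp genes were expressed enough to test and 8 of them had negative fold changes, with Mmp15 the only call. Mmp14, the membrane-type enzyme that activates Mmp2 at the cell surface, had the highest normalised count of the family. It was at 1892, 2011, 2211 and 2346 in mutants and 2214, 2159, 2397 and 2372 in controls. The groups overlapped, and the log2 fold change was -0.12 (SE 0.064, limma adjusted p = 0.697). Mmp2, gelatinase A, averaged 1693 ± 117 in mutants and 1733 ± 114 in controls (SD, n = 4 each), and its groups overlapped. Of the 5 tested membrane-type genes (Mmp14, Mmp15, Mmp16, Mmp17 and Mmp25), 4 had negative fold changes, with a median of -0.12. Mmp11, known as stromelysin 3 and made by connective tissue cells, averaged 501 ± 15.8 in mutants and 523 ± 57.5 in controls (SD, n = 4 each).

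No inhibitor gene was called. Timp2, which blocks Mmp2 and also forms the complex through which Mmp14 activates it, was at 1505, 1653, 1661 and 1678 in mutants, against 1866, 1839, 1849 and 1705 in controls. The groups did not overlap, and the means were 1624 ± 80.1 in mutants and 1815 ± 74.4 in controls (SD, n = 4 each). The log2 fold change was -0.16 (SE 0.045), and Timp2 was not called in any fit run, with a limma adjusted p of 0.200 over all 8 libraries. Timp3, an inhibitor bound to the matrix, was at 1500.2, 1339.7, 1099 and 1166 in mutants and 1432, 1309.7, 1259 and 945 in controls (log2 fold change 0.05, SE 0.124, limma adjusted p = 0.952). Timp1 was at 87.9, 82.0, 82.9 and 97.7 in mutants and 101, 104, 71.7 and 79.9 in controls (log2 fold change -0.01, SE 0.139, limma adjusted p = 0.988). For both the groups overlapped, and the sign of the fold change depended on the library left out. Exons of Timp3 overlap those of Syn3 on the opposite strand.

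Among convertases, Pcsk5 was the only one called. Pcsk6, the closest relative of Pcsk5, was at 129, 154, 155 and 158 in mutants and 179, 145, 171 and 148 in controls (log2 fold change -0.10, SE 0.103, limma adjusted p = 0.856). Pcsk7, a widely expressed transmembrane convertase, was at 326, 292, 270.0 and 261 in mutants, against 276, 259, 276 and 245 in controls (log2 fold change 0.12, SE 0.080, limma adjusted p = 0.792). Its exons overlap those of Rnf214 and of the smooth muscle gene Tagln on the opposite strand. Pcsk4, known from germ cells, averaged 27.4 ± 4.87 in mutants and 27.6 ± 7.69 in controls (SD, n = 4 each). Pcsk2, an enzyme of neuroendocrine cells, averaged 11.0 ± 2.01 in mutants and 9.92 ± 4.66 in controls (SD, n = 4 each). Whether Pcsk5 differed from its relatives was not tested.

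The 3 tested Adamts-like genes were not called by limma at an adjusted p under 0.05, and none reached an unadjusted p under 0.05. Adamtsl1 was at 160.4, 214, 188 and 223 in mutants and 229.7, 223, 209 and 179 in controls (log2 fold change -0.10, limma adjusted p = 0.888). Adamtsl3 had the highest fold change of the 39 tested members (0.52, SE 0.287, limma adjusted p = 0.697), from levels of only 16.1 ± 5.21 in mutants and 10.7 ± 2.13 in controls (SD, n = 4 each). The 17 tested members outside the naming rule given below include Adamtsl3, Adamts1, Adamts18, Mmp2 and Mmp11. These 17 had log2 fold changes from -0.46 to 0.52 and limma adjusted p of 0.697 or more, and 10 of them were below 0.

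Levels of different genes can be set side by side only per length. Per kilobase of exon, in normalised reads, 8 members exceeded 100 and 31 exceeded 10. The highest were Mmp2, at 502 in mutants and 514 in controls, Timp2, at 417 in mutants and 466 in controls, and Mmp14, at 355 in mutants and 383 in controls. Adamts9 stood at 107 in mutants and 133 in controls and Mmp15 at 91.1 in mutants and 111 in controls. Pcsk5, with 29.0 per kilobase in mutants and 40.8 in controls, ranked below Pcsk7, with 55.2 in mutants and 50.8 in controls. The length counts all annotated exons of a gene together, 14447 bases for Pcsk5 and 5202 for Pcsk7. The order therefore depends on that length, and levels per transcript were not measured.

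**Figure D5:**
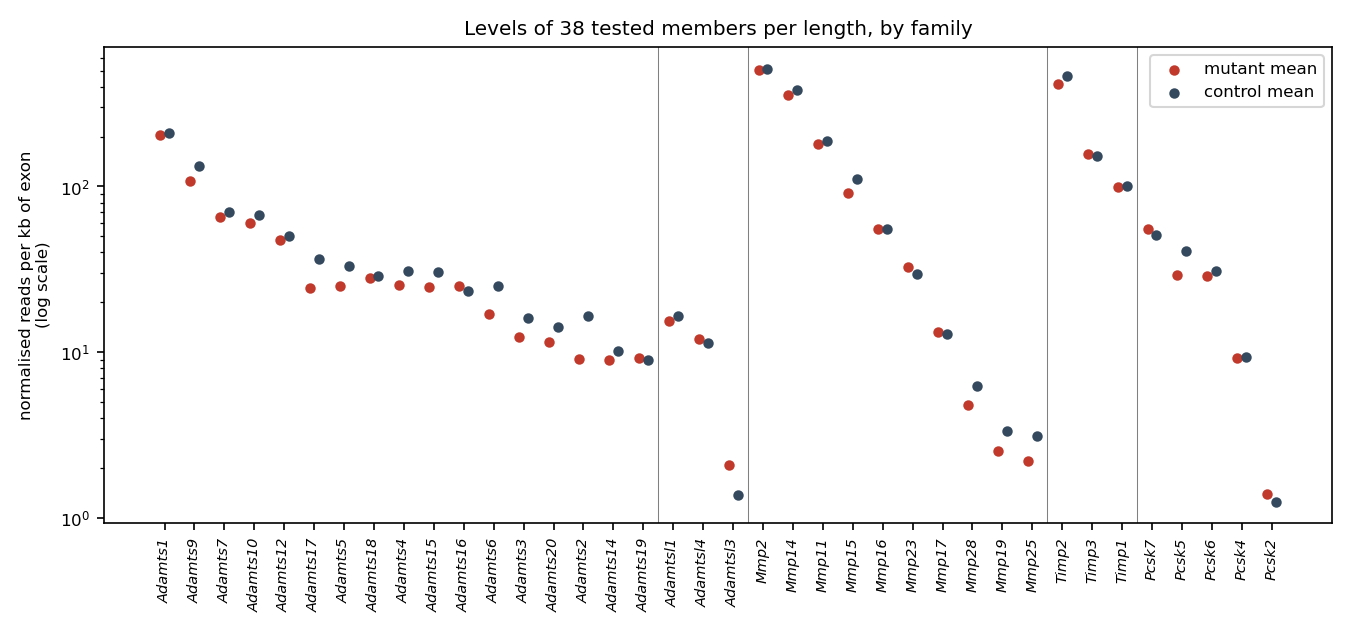
Mean normalised reads per kilobase of exon (y axis, log scale) of 38 of the 39 tested members in mutants (red, left of each pair) and controls (dark, right), by family and ordered by level. Mmp2, Timp2 and Mmp14 top the plot between 355 and 514, and Pcsk2 and Adamtsl3 lie lowest.

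The other 19 members had a mean under 10 and were not tested. Mmp1b, Mmp3, Mmp7 and Mmp27 had no read in any of the 8 libraries, which allows up to 3 of the 92567942 reads in genes (counting error only). Another 7 had a mean above 0 and under 1, among them the macrophage elastase gene Mmp12, the enamel protease gene Mmp20 and the neutrophil collagenase gene Mmp8. The remaining 8 had means between 1 and 10. They included Mmp9, gelatinase B, at 3.36 to 8.52 in mutants and 4.70 to 12.4 in controls, and the collagenase gene Mmp13, at 0 to 3.36 in mutants and 0 to 2.55 in controls. Adamtsl2 was at 0, 7.45, 3.36 and 3.22 in mutants and 11.1, 12.4, 10.7 and 5.64 in controls, too few reads for a test under the rule. Just outside the threshold were Adamtsl2 (mean 6.72) and Adamtsl5 (8.28), and just inside were Mmp19 (10.4) and Pcsk2 (10.5). The 7 macrophage and neutrophil markers together summed to 166 to 364 in mutants and 275 to 489 in controls. Of the neutrophil genes among them, Mpo reached 6.39 in mutants and 6.80 in controls, S100a8 reached 4.30 in mutants and 2.82 in controls, and Elane had reads in 2 mutant libraries only.

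Of the other genes of these pathways, 3 of 56 tested (5.36%) were lower and none was higher, where 0.446% of all tested genes were lower. These lists were drawn up with earlier results of these data known, so their counts are not independent evidence. Among 22 other proteases only Fap, the membrane protease called fibroblast activation protein, fell. It was at 122, 137, 111 and 139.6 in mutants and 194, 239.8, 199 and 184 in controls (log2 fold change -0.67, limma adjusted p = 0.0218), with no overlap. Of 17 inhibitors and cofactors none was called by limma with genotype as its only term. The smallest p there was that of Spint2, a membrane-bound serine protease inhibitor, at 802 ± 72.6 in mutants and 682 ± 76.4 in controls (SD, n = 4 each, limma adjusted p = 0.399). Of 17 targets and binding partners the convertase-processed ligand genes Tgfb2 and Tgfb3 fell. Tgfb2 was at 380.1, 462, 457 and 595 in mutants and 675, 801, 712 and 734 in controls (limma adjusted p = 0.0325). Tgfb3 was at 405, 387, 425 and 540.2 in mutants and 647, 663, 757 and 625 in controls (limma adjusted p = 0.0207). For both, mutant 4 was again the highest mutant library. When single libraries were omitted, Fap was no longer called in 5 of 8 fits (without mutant 1, 2 or 3 or control 2 or 3), nor was Tgfb3 in the same 5, and Tgfb2 was not in 6 (those and without control 1).

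The 3 called members have promoter windows in RefSeq (GRCm38.p6), and the 250 bases before the transcript start that the table uses are shown because these genes were called. For Mmp15 the window ends at the outer end of the gene given above. For Pcsk5 its last 80 bases lie inside the gene span, and for Adamts9 the whole window does, 666 bases from the outer end. Capitals mark TGGGTGG, the core of the site read by the hedgehog effectors of the Gli family, and GGGCGG, a GC box, on either strand.
Pcsk5 (chr19:17837633-17837882, minus strand): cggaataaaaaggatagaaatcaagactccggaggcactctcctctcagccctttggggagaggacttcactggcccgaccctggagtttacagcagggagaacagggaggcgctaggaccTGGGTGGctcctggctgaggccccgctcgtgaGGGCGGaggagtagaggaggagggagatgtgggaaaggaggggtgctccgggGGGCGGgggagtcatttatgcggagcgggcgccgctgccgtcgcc
Adamts9 (chr6:92943535-92943784, minus strand): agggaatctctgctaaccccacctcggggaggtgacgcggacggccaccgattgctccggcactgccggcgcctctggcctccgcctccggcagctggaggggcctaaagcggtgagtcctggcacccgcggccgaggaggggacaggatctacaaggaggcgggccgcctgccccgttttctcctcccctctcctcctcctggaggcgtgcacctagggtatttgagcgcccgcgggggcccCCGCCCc
Mmp15 (chr8:95352046-95352295, plus strand): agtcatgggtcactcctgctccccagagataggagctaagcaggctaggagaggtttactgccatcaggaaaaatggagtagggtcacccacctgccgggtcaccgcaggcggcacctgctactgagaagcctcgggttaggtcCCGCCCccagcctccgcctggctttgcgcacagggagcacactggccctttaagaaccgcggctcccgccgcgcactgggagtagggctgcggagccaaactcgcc
Pcsk5 held 1 Gli core and 2 GC boxes, and Adamts9 and Mmp15 held 1 GC box each and no core. The full consensus TGGGTGGTC, which contains the core, was in none of the 24 tested members with a window and in 0.225% of 32851 windows. The core was in 8 of the 24 members (Adamtsl4, Mmp14, Mmp25, Mmp28, Pcsk2, Pcsk5, Timp2 and Timp3) and in 8.11% of all windows. The GC box was in 21 of the 24 and in 32.7% of all windows. Members were counted by gene and had passed the filter on level, while the shares count single windows of genes at any level. The members and the shares can therefore not be compared directly, and enrichment was not tested. The windows of the 3 called members were 63.6% to 71.2% G or C. A match describes letters and not a bound site, and 15 tested members had no window in the table.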

How the data were processed

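RNA of mouse kidneys at E13.5 was measured in 4 mutant and 4 control libraries made with poly(A) selection from 500 ng of RNA, per the labels' protocols. The submitters' processing notes name TopHat2 2.0.12, HTSeq, DESeq2 1.4.5 and the build mm10 (GRCm38). The gene annotation and the use of strand are not given in the sources used here. The authors deposited 1 table of signal values, normalised so that reads in a library were scaled by a shared factor. Dividing by the value of 1 read gave whole reads for 100% of values (within 0.01 read). The authors' deposited ratio of group means (fold change), log2 ratio and p-values stand in the same table.

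Normalised counts were log2-transformed with a pseudocount of 1 and tested across the 13692 genes with a mean of at least 10 by limma 3.58.1 (R 4.3.3) with an intensity trend, with a term for genotype, two-sided tests and a Benjamini-Hochberg threshold of 0.05. Because the deposited values are normalised, edgeR 4.0.16 and DESeq2 1.42.0 on recovered reads served as alternatives. The steps were tested on simulated data. Members, gene lists and tests were chosen with earlier results of these data known. Named in full are called members, the next 10 by p, the highest count of each family, every tested Timp and Pcsk gene, and called or up to 4 pathway genes per list with the smallest p. The values of 1 tested member are not reported here, though it is part of the counts. Mmp2, Mmp11, Mmp12, Mmp13, Mmp9, Adamts1, Adamts18, Adamtsl2 and Adamtsl3 were described outside this rule, after their values were seen. Positions are from RefSeq GRCm38.p6, exon lengths and overlaps from GENCODE vM21, matched for all 58 members. Active sites were found by in-frame codon patterns in the longest coding transcript with a complete start. Within a group, every pair of libraries had a chi-square per degree of freedom of 2.89 to 10.98, so all 8 were kept as separate samples. Read totals limit counting error, while the spread between libraries sets the tests. Alternatives covered pseudocount, filter, scaling, test, a replicate block, a muscle score and left-out libraries. Figures were drawn with matplotlib 3.10.9.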

Additional observations from a re-analysis of the deposited data

Results flagged for a closer look

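In 78 groups of 4 values, 7 held a library far from the other 3, where chance gives about 3.9. Timp2 was at 1505 in mutant 1, below 1653 to 1678 in the other mutants, and at 1705 in control 4, below 1839 to 1866 in the other controls. Pcsk6 was at 128.9 in mutant 1, below 154 to 158 in the other mutants. Adamts3 was at 106.6 in control 3, above 79.6 to 80.8 in the other controls. In control 4, Adamts18 was at 520.9, above 195 to 231 in the other controls, and Adamts19 at 153.2, above 115 to 120.1. Adamtsl4 was at 65.12 in control 2, above 40.4 to 42.6 in the other controls. Of the 7 values, 3 belonged to control 4.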

How the results depend on the processing

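The count of 3 called members became 7 with DESeq2, 0 without an intensity trend, 0 without both libraries numbered 2 and 1 without control 1 and control 2, and lay between 1 and 4 with a library left out. The cause was not tested. The count of 78 genes called in all became 214 with DESeq2, 4 without the trend, 232 with a replicate block, 2 without both libraries numbered 2, 29 without control 1 and control 2, and 146 without control 4 and mutant 2 (the libraries with Y-linked reads), and lay between 18 and 185 with a library left out. The 6 members with separated groups became 12 without control 1 and control 2, 11 without control 4 and mutant 2, and 6 to 12 with a library left out, since fewer values separate more easily. The sample numbers were not taken to pair libraries, since the labels give no shared litter or day and not every same-numbered pair correlated above 0.1 (0.32, 0.29, 0.29 and 0.06 across genes). The 12 other pairs lay between -0.32 and 0.15, and 6 of 8 libraries correlated best with their own number, a hint of pairing from the data and not from the design. With the replicate block 4 members were called, Adamts17 in addition (adjusted p = 0.0165), and of the pathway genes Spint2 was called higher (log2 fold change 0.24, adjusted p = 0.0432). Of 21 named members, 17 kept their sign in all alternatives. Adamtsl1 (log2 fold change 0.012), Pcsk4 (-0.29) and Timp1 (0.21) turned without control 1 and control 2. Pcsk4 also turned with edgeR (-0.00647), DESeq2 (-0.00652) and the muscle score (-0.034), and ranged from -0.17 to 0.15 with a library left out. Timp1 turned with quantile normalisation (0.021), the muscle score (0.018) and without both libraries numbered 2 (0.10), and ranged from -0.11 to 0.067 with a library left out. Timp3 turned without control 4 and mutant 2 (-0.10) and ranged from -0.072 to 0.13. None of these was called. The 12 named pathway genes kept their sign. Members with a mean near 10 are limited by read number.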
